A study of Mus musculus with 40 samples.

Results

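Alad encodes delta-aminolevulinate dehydratase, the second enzyme of heme synthesis. Among 36 BXD recombinant inbred mouse lines, the hypothalamus of 9 lines gave fewer than 42 CPM of Alad and that of the other 27 lines gave more, and these sides were compared for all other genes. CPM is the read count of a gene per 1000000 counted reads of its library. The 9 low-Alad lines were BXD29, BXD32, BXD48, BXD55, BXD64, BXD79, BXD81, BXD87 and BXD96. They were chosen from the Alad counts alone, so the Alad values are given without a test. Both sides had the same tissue and no treatment, and each line was represented by 1 library made from RNA pooled from 3 to 6 hypothalami. The whole series held 40 libraries, the other 4 being 1 each of the reciprocal hybrids B6D2F1 and D2B6F1 and of the inbred parents C57BL/6J and DBA/2J. Animal ages are not given in the sources used here. The total count per library was 12.2 to 26.1 M in the low-Alad lines (median 22.4) and 17.3 to 40.4 M in the high-Alad lines (median 23.2).

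BXD lines were bred from hybrids of the C57BL/6J and DBA/2J parents, and each line carries fixed blocks of chromosome from one parent or the other, so neighbouring genes are inherited together. Heme synthesis starts in the mitochondrion with 5-aminolevulinate synthase (Alas1 in most tissues, Alas2 in red cell precursors). It continues in the cytosol with Alad and further enzymes, among them Uros and Urod, and ends in the mitochondrion with Cpox, Ppox and Fech, which inserts the iron. In most cells Alas1 is the regulated step, and Alad is best known as the enzyme that lead inhibits. DBA/2J is known to carry a duplication of chromosome 4 that includes Alad. Copies of DNA were not measured in these libraries.

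Alad had 25.4 CPM in the lowest low-Alad line, BXD32, a median of 29.4 CPM, and 31.5 CPM in the highest, BXD81. In the high-Alad lines it had 56.3 CPM in the lowest, BXD75, a median of 80.7 CPM, and 88.0 CPM in the highest, BXD67. The threshold thus fell in an empty stretch between 31.5 and 56.3 CPM, and BXD81 and BXD75 are the lines just inside and just outside it. The widest step in the sorted values, 0.84 on the log2 scale, gave the same 9 and 27 lines. The mean was 28.9 ± 2.06 CPM in the low-Alad lines (SD, n = 9) and 78.8 ± 7.30 CPM in the high-Alad lines (SD, n = 27), a ratio of 0.367.

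Of the hybrids and parents, which had no part in the choice, only DBA/2J stood within the range of the high-Alad lines. None stood within that of the low-Alad lines. B6D2F1 had 52.4 CPM (exact Poisson 95% interval 49.7 to 55.2) and D2B6F1 54.3 CPM (51.7 to 56.9), above every low-Alad line and below every high-Alad line. C57BL/6J had 38.6 CPM (36.2 to 41.1), also above every low-Alad line, and DBA/2J had 74.0 CPM (70.7 to 77.3), inside the range of the high-Alad lines. The intervals cover the sampling of reads only, as amplified copies could not be told from separate molecules.

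Within the high-Alad lines, BXD75 with 56.3 CPM, BXD43 with 59.99 CPM and BXD63 with 67.0 CPM stood below the other 24, which had at least 74.05 CPM. DBA/2J, with 73.97 CPM, lay just under these 24. On a scale from the median of the low-Alad lines (0%) to that of the high-Alad lines (100%), BXD75 stood at 52.4%, BXD43 at 59.5% and BXD63 at 73.3%. B6D2F1 stood at 44.7%, D2B6F1 at 48.4%, C57BL/6J at 17.9% and DBA/2J at 86.8% on the same scale. To set these beside the rest of the genome, 63 genes outside chromosome 4 were taken whose line values parted by a step of at least 1 log2 unit. Between 25% and 75% of the way from the lower to the upper median lay 14.3% of these genes in BXD43, the highest share of any line, and 7.94% in BXD75, with a median of 2.38% over the lines. The share was 87.3% in either hybrid, 31.7% in C57BL/6J and 11.1% in DBA/2J. These genes were chosen for a gap among the same lines, which itself limited how many line values could lie in between. The hybrids and parents had no part in that choice, so their shares are not comparable with those of the lines. The widest step of Alad, 0.84, was under the 1 log2 unit asked of these genes.

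Across the 15836 genes tested besides Alad, 3 differed between the sides, 2 lower and 1 higher in the low-Alad lines, which is 0.0189% of the genes tested (0.0126% lower, 0.00631% higher; edgeR quasi-likelihood test, Benjamini-Hochberg adjusted p under 0.05 over all genes tested). All 3, Hdhd3, Bspry and Frrs1l, lie on chromosome 4, and Hdhd3 and Bspry are the nearest genes to Alad on one side. In only these 2 did the CPM ranges of the sides not overlap, 0.0126% of the genes tested. Each library is a different genotype, so the p-values measure the spread between lines.

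Hdhd3, which encodes a hydrolase-like protein of the haloacid dehalogenase superfamily with little known function, had 2.94 CPM in the lowest low-Alad line, BXD32, a median of 3.86 CPM, and 4.77 CPM in the highest, BXD64. In the high-Alad lines it had 7.18 CPM in the lowest, BXD43, a median of 13.3 CPM, and 16.1 CPM in the highest, BXD89. Every low-Alad line thus stood below every high-Alad line. The lowest high-Alad lines, BXD43 and BXD75 (8.13 CPM), were also the lowest of that side for Alad. BXD63, the next lowest for Alad, had 12.5 CPM of Hdhd3. The log2 difference was -1.70 ± 0.097 (SE) with an adjusted p of 6.02e-16 in edgeR's test. Hdhd3 was known from earlier results on these libraries to part the lines like Alad, so its test is not independent support. Per 100 reads of Alad, Hdhd3 had 11.4 to 16.96 reads in the low-Alad lines (median 13.3) and 11.96 to 19.1 in the high-Alad lines (median 16.2), so that this ratio overlapped between the sides.

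Bspry, which encodes a protein with a B-box and a SPRY domain, was a weakly expressed gene here. It had 0.813 CPM in the lowest low-Alad line, BXD48, a median of 0.998 CPM, and 1.38 CPM in the highest, BXD32. In the high-Alad lines it had 2.12 CPM in the lowest, BXD75, a median of 3.21 CPM, and 4.31 CPM in the highest, BXD85. The sides did not overlap in the raw counts. The log2 difference was -1.56 ± 0.099 (SE), adjusted p 1.39e-14 in edgeR's test. In the raw counts BXD43, intermediate for Alad and Hdhd3, was not so for Bspry, with 3.24 CPM. BXD75, with 2.12 CPM, stood 50.75% of the way from the low-Alad to the high-Alad median.

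**Figure D1:**
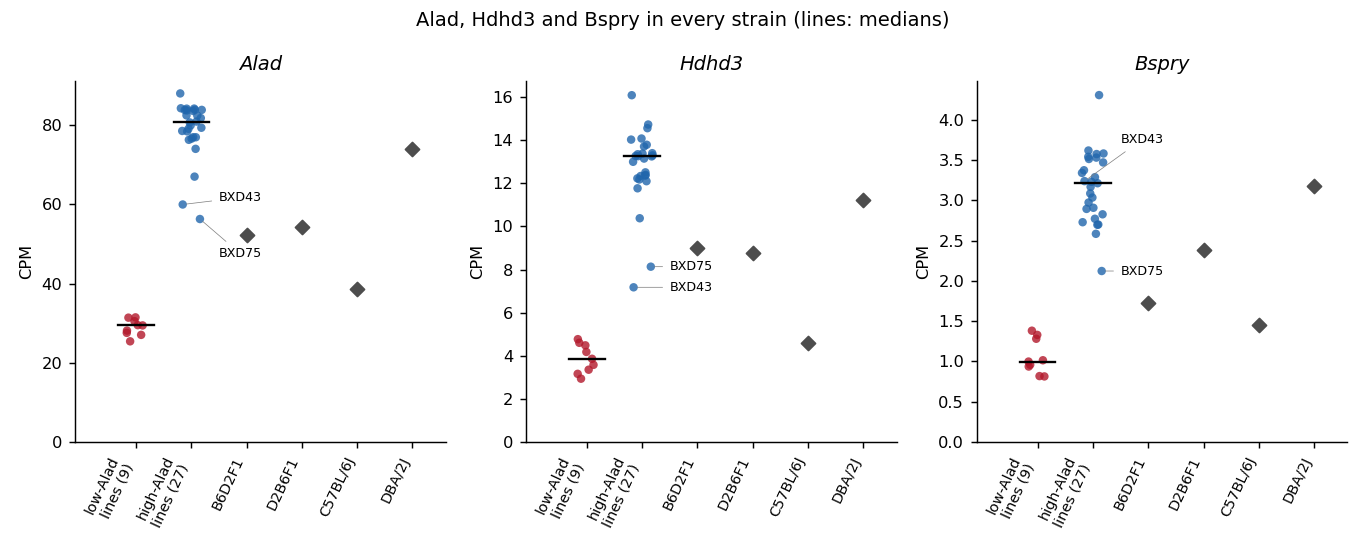
CPM (vertical axis, linear, from 0) of Alad, Hdhd3 and Bspry in each strain, with the 9 low-Alad lines (red), the 27 high-Alad lines (blue), the hybrids and the parents (grey diamonds); each point is 1 library and horizontal lines are medians. The sides do not overlap in any of the 3 genes, BXD43 and BXD75 are the lowest high-Alad lines for Alad and Hdhd3, and both hybrids lie between the side medians.

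The Bspry difference rested on which deposited table was read. Besides raw counts, the authors deposited a table of normalized values from which whole reads can be recovered. For Bspry the normalized table held 80% to 100% of the raw reads in the low-Alad lines (median 92.0%, with 0 to 4 reads missing). It held 18.7% to 43.3% in the high-Alad lines (median 28.1%, with 31 to 87 reads missing). With the recovered reads, the log2 difference of Bspry was 0.17 in the other direction, with an adjusted p of 0.750 in edgeR's test. Alad kept at least 99.4% of its reads in every line, Hdhd3 at least 99.4% and Frrs1l at least 99.6%, and Hdhd3 differed by -1.70 in both tables. Of 15227 genes with reads in both tables, 14203 kept at least 95% of them, and Bspry had rank 3 by the difference in kept share, low-Alad minus high-Alad lines, 64.5 percentage points. Which rule of counting made either table is not given in the sources used here. Bspry and Hdhd3 lie on opposite strands.

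**Figure D2:**
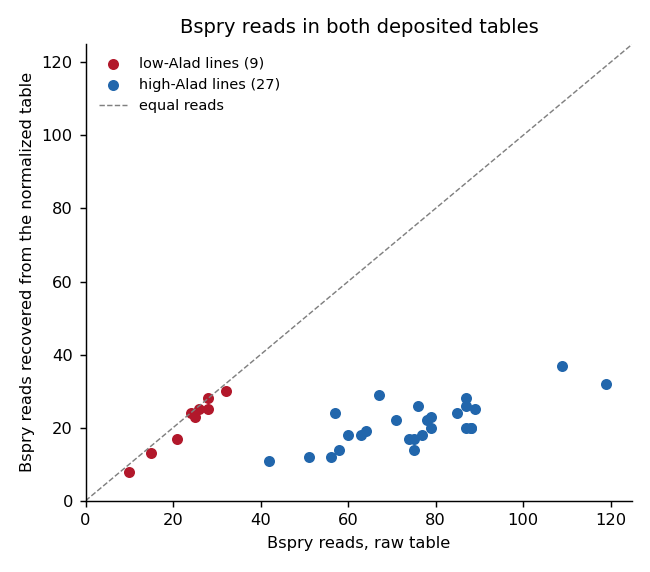
Bspry reads per line in the raw table (horizontal axis) and recovered from the normalized table (vertical axis), for the 9 low-Alad lines (red) and the 27 high-Alad lines (blue); the dashed line marks equal reads. The low-Alad lines lie near the dashed line and the high-Alad lines far under it, at 18.7% to 43.3% of their raw reads.

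The promoters of these genes are shown because Alad, Hdhd3 and, in the raw counts, Bspry were lower in the same lines. Each window runs from 250 bases before to 50 bases after the annotated start in RefSeq, build GRCm38.p6, 5′ to 3′ on the gene's strand, and is the reference sequence, not that of a BXD line. Alad has 2 windows in the table, of which 1 is printed. Capitals mark GGGCGG or its reverse complement CCGCCC, the core of a binding motif of SP1 family factors, searched on both strands.
Alad (chr4:62520014-62520313, minus strand): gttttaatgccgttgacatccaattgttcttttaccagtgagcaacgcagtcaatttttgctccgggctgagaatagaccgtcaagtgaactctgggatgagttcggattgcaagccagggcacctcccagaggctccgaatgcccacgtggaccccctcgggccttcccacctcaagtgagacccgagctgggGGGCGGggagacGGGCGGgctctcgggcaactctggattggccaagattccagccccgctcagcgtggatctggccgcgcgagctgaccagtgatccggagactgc
Hdhd3 (chr4:62502151-62502450, minus strand): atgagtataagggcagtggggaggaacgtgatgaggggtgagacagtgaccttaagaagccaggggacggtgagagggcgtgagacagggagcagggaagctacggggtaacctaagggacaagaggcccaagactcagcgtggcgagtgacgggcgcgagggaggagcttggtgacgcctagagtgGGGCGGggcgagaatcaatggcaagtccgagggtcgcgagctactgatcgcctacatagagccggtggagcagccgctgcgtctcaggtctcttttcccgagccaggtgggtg
Bspry (chr4:62479812-62480111, plus strand): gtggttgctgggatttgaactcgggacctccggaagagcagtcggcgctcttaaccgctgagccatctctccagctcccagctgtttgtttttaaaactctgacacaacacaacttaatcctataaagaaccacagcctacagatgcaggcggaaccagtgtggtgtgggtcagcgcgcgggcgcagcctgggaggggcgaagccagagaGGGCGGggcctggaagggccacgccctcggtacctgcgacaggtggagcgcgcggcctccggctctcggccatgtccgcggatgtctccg
The motif occurred 2 times in the Alad window and 1 time each in those of Hdhd3 and Bspry, and 35.7% of 32851 RefSeq promoter windows of the same length hold it. GC content was 60.0%, 61.7% and 62.0% in the Alad, Hdhd3 and Bspry windows, and the median over all windows was 52.7%.

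The other neighbours of Alad did not pass the test. Of the 10 annotated genes on each side of Alad, 14 were tested, and 2 of these, Hdhd3 and Bspry, were called (0.0189% of all genes tested were). The remaining 12 had log2 differences from -0.015 to 0.082, with adjusted p of 0.728 or more in edgeR's test, and in all 12 the sides overlapped. Wdr31, a WD-repeat gene next to Bspry, had 5.05, 6.71 and 7.12 CPM as the lowest, median and highest low-Alad line, and 4.88, 6.41 and 7.61 CPM as those of the high-Alad lines (log2 difference 0.082 ± 0.070, SE). Pole3, a DNA polymerase epsilon subunit next to Alad on the other side, had 11.3, 11.9 and 15.02 CPM in the low-Alad lines, and 9.45, 12.5 and 14.97 CPM in the high-Alad lines (log2 difference -0.015 ± 0.065). The copper transporter Slc31a1 and its relative Slc31a2 differed by 0.010 ± 0.052 and 0.0018 ± 0.041. Prpf4, a spliceosome protein, and Cdc26, a subunit of the anaphase-promoting complex, differed by 0.041 ± 0.030 and 0.011 ± 0.043. Further out on that side, Fkbp15 and Zfp37 differed by 0.036 ± 0.032 and 0.081 ± 0.048. Beyond Pole3, the G protein signalling regulator Rgs3 differed by 0.013 ± 0.052, Zfp618 by 0.027 ± 0.079, the collagen gene Col27a1 by -0.0095 ± 0.089, and 4933430I17Rik by -0.0019 ± 0.16. In the raw counts, the differences that passed the test thus covered the nearest 2 genes on one side of Alad and none of the tested neighbours on the other.

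Frrs1l, which encodes an accessory protein in the assembly of AMPA-type glutamate receptors, was the gene that rose, and it lay further away, with 30 tested genes between it and Alad. It had 78.1 CPM in the lowest low-Alad line, BXD79, a median of 130 CPM, and 144 CPM in the highest, BXD81. In the high-Alad lines it had 64.7 CPM in the lowest, BXD101, a median of 85.0 CPM, and 105 CPM in the highest, BXD63. The sides overlapped, with 7 of the 9 low-Alad lines above every high-Alad line and 2 inside their range. The log2 difference was 0.52 ± 0.076 (SE), adjusted p 1.78e-04 in edgeR's test. With 4 cell type scores as covariates it was 0.50, adjusted p 0.00622.

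Smaller differences were frequent in the same stretch. Of the 50 tested genes nearest to Alad on the side of Hdhd3, 18 had an unadjusted p under 0.05 (36.0%), 12 higher and 6 lower in the low-Alad lines. Of the 50 nearest on the other side, 8 did (16%). Over all genes tested the share was 7.27% (3.8% higher in the low-Alad lines), and on the other chromosomes it was 7.25% (1077 of 14864). In the next 50 genes outward it was 6.0% (3 genes) on the side of Hdhd3 and 2.0% (1 gene) on the other, and in the remaining 772 genes of chromosome 4 it was 5.83%. Without BXD32, whose choroid plexus markers were high, 16 genes (32%) on the side of Hdhd3 and 5 on the other had such a p, beside 4.402% of all genes. With 4 cell type scores as covariates, 19 genes (38%) on the side of Hdhd3 and 6 on the other did, beside 3.90% of all genes. Genes of 1 chromosome share inherited blocks, so these counts are not of independent genes.

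**Figure D3:**
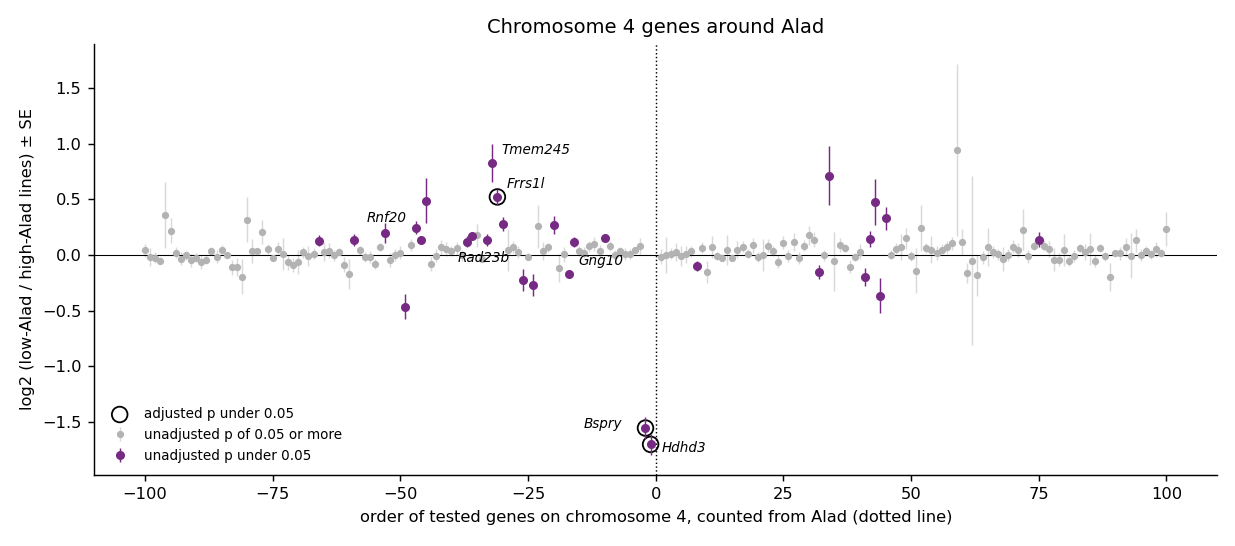
Log2 difference of the low-Alad over the high-Alad lines ± SE (vertical axis) for the tested genes of chromosome 4 within 100 genes of Alad, in their order (horizontal axis, lower coordinates to the left); purple marks an unadjusted p under 0.05 and rings an adjusted p under 0.05. Hdhd3 (-1.70) and Bspry (-1.56) stand alone beside Alad, and Frrs1l (0.52) and Tmem245 (0.83) lie about 30 genes to the left.

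DESeq2 on the same counts called 18 of 17114 genes (0.105%), 7 higher and 11 lower in the low-Alad lines, including all 3 of edgeR's. Of these 18, 10 were on chromosome 4. The genes that DESeq2 added and that are described next were picked out after their values were seen. Tmem245, a transmembrane protein gene, had a log2 difference of 0.83 ± 0.17, with an adjusted p of 0.0753 in edgeR's test and 0.00571 in DESeq2's. Rad23b, which acts in the recognition of DNA damage, had 0.17 ± 0.034 (adjusted p 0.0624 in edgeR's test, 0.00262 in DESeq2's). Rnf20, a ubiquitin ligase for histone H2B, had 0.25 ± 0.057, Epb4.1l4b 0.28 ± 0.063, and the sorting nexin gene Snx30 0.15 ± 0.035 (adjusted p 0.148 each in edgeR's test). With 4 cell type scores as covariates Snx30 had 0.10. Gng10, a G protein gamma subunit gene, had -0.17 ± 0.036 (adjusted p 0.0753 in edgeR's test, 0.00917 in DESeq2's).

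Not every low-Alad line carried the distant differences. BXD55, BXD64 and BXD79 had 95.1, 107 and 78.1 CPM of Frrs1l, whereas the other 6 low-Alad lines had 126 to 144 CPM, and the high-Alad lines had 64.7 to 105 CPM. For Tmem245 the same 3 lines had 7.93, 5.80 and 5.67 CPM, the other 6 low-Alad lines had 12.1 to 15.6 CPM, and the high-Alad lines 3.65 to 11.8 CPM. For Rad23b they had 188, 174 and 181 CPM, the other 6 had 203 to 231 CPM, and the high-Alad lines 170 to 201 CPM. In all 3 genes the other 6 low-Alad lines stood above every high-Alad line, and BXD55, BXD64 and BXD79 stood within or next to the range of the high-Alad lines.

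Rnf20 had 66.9, 75.6 and 64.7 CPM in these 3 lines, 85.7 to 114 CPM in the other 6 low-Alad lines, and 63.9 to 90.5 CPM in the high-Alad lines. Epb4.1l4b had 11.45, 12.8 and 9.84 CPM in the 3 lines, against 13.9 to 15.3 CPM in the other 6. The high-Alad lines had 8.37 to 14.7 CPM of it. Grin3a, an NMDA receptor subunit gene, had 133.8, 127.5 and 123.9 CPM, against 135.9 to 145.1 CPM, a narrow gap. The high-Alad lines had 105.4 to 145.8 CPM of Grin3a. In Rnf20, Epb4.1l4b and Grin3a the other 6 overlapped the high-Alad lines, but the 3 lines still stood below the other 6. Closer to Alad this was not so in the genes examined. Gng10, with 16 tested genes between it and Alad, had 24.8, 28.1 and 27.6 CPM in the 3 lines and 26.5 to 27.9 CPM in the other 6, and Snx30, with 9 between, had 116, 104 and 100 CPM, against 103 to 119 CPM in the other 6. Nor did Alad, Hdhd3 or Bspry part the 3 lines from the other 6. These 3 lines were picked out after their values were seen, and no test was made on them. The genes were picked for their difference between the sides. How many of all genes tested part these 3 lines from the other 6 was not counted. Genotypes of the lines were not used here.

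**Figure D4:**
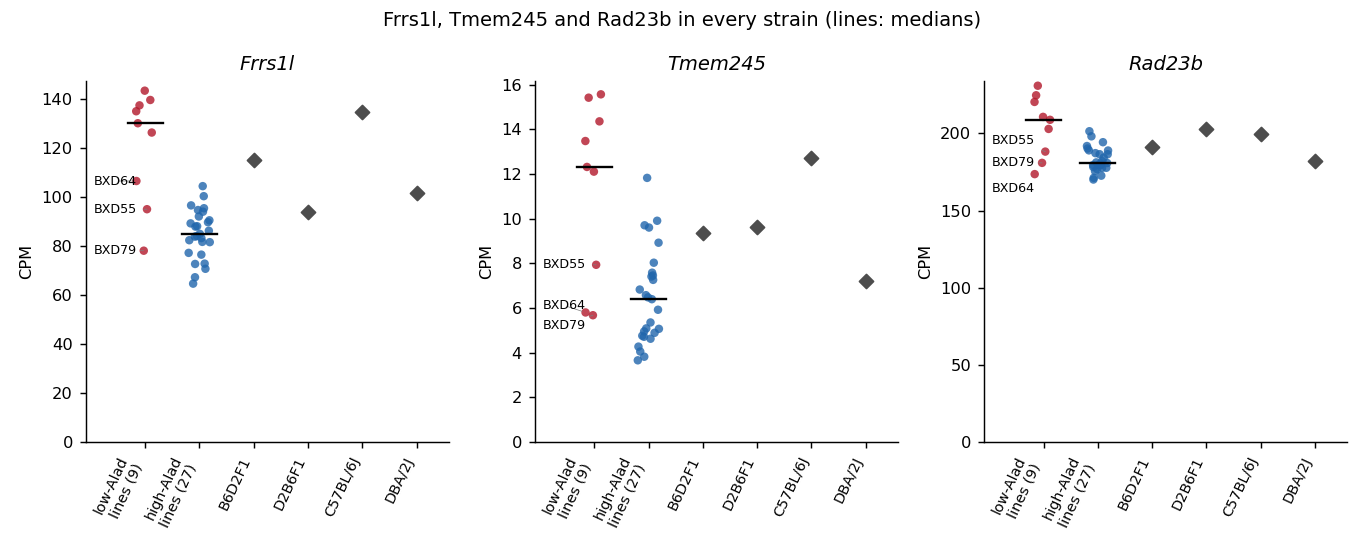
CPM (vertical axis, linear, from 0) of Frrs1l, Tmem245 and Rad23b in each strain, drawn as in the plot of Alad, with BXD55, BXD64 and BXD79 named; each point is 1 library and horizontal lines are medians. In each gene the 6 unnamed low-Alad lines lie above all 27 high-Alad lines, and the 3 named lines lie lower, within or next to the range of the high-Alad lines.

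Heme synthesis beyond Alad showed no difference that passed the test. Of 7 other genes of the pathway analysed here, none was called (0.0189% of all genes tested were) and none had an unadjusted p under 0.05. The smallest adjusted p was 0.689 in edgeR's test, and in all 7 the sides overlapped. The median log2 difference of the 7 was 0.0023, and that over all genes tested was -0.0015. For the 6 genes other than Alas2, intervals of 2 SE lay within -0.22 and 0.13 on the log2 scale.

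Alas1, the regulated first enzyme, had 45.3, 47.8 and 50.4 CPM as the lowest, median and highest low-Alad line, and 38.9, 48.0 and 54.7 CPM as those of the high-Alad lines. Its log2 difference was -0.0040 ± 0.036 (SE), with an interval of 2 SE up to 0.068. All 9 low-Alad lines lay inside the range of the high-Alad lines. Alas2, the red cell form, was weak, with 1.21, 3.20 and 8.30 CPM in the low-Alad lines, and 1.78, 3.26 and 6.35 CPM in the high-Alad lines. Its difference of 0.12 ± 0.21 was the least precise of these genes, and it was 0.24 without BXD32 and 0.47 with 4 cell type scores as covariates.

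Uros and Urod, which act in the cytosol after Alad, differed by 0.0023 ± 0.042 and -0.098 ± 0.055. Ppox, which oxidises protoporphyrinogen, had the lowest p of the list, with 23.3, 28.6 and 32.9 CPM in the low-Alad lines, and 23.96, 30.7 and 34.4 CPM in the high-Alad lines (-0.11 ± 0.057). Cpox and the ferrochelatase gene Fech differed by 0.033 ± 0.050 and 0.036 ± 0.027. A drop of Alad to 0.367 of the high-Alad mean thus stood beside no called difference in these 7 genes.

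**Figure D5:**
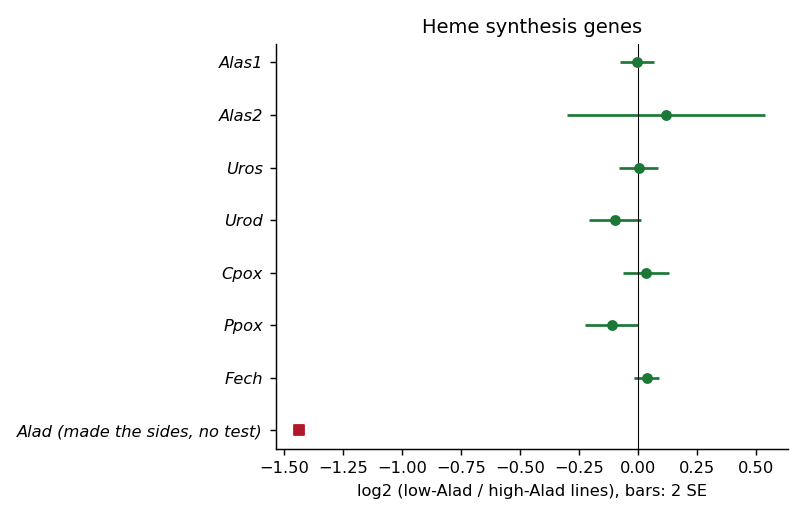
Log2 difference of the low-Alad over the high-Alad lines (horizontal axis) for the analysed genes of heme synthesis, with Alad placed last; circles are estimates, bars are 2 SE, and the red square is Alad, which made the sides and has no test. Alad stands at -1.44 and the 7 other genes at -0.11 to 0.12.

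Related lists held no called gene except Hdhd3. Of 84 tested members of the lists of heme and porphyrin transport (17), heme breakdown (8), heme proteins (25), iron handling (20) and the haloacid dehalogenase family (15 with Hdhd3), none besides Hdhd3 was called, where the share called over all genes tested was 0.0189%. Their median log2 differences were -0.036, -0.031, -0.026, -0.0090 and -0.063 in that order. Among 20 iron handling genes 4 had an unadjusted p under 0.05 (7.27% of all genes tested had), among them Steap2, a metalloreductase gene, with 0.23 ± 0.067 (adjusted p 0.466 in edgeR's test). For Steap2 the difference was 0.12 without BXD32 and 0.089 with 4 cell type scores as covariates. Hebp1, a heme-binding protein gene, had -0.13 ± 0.058 (adjusted p 0.679), Por, the electron donor of heme oxygenase and cytochromes P450, -0.088 ± 0.048, and Gucy1b3, the heme-binding subunit of soluble guanylate cyclase, -0.11 ± 0.057 (both adjusted p 0.699).

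The parents and hybrids, which the choice of lines did not use, were set beside the 3 called genes. In log2 (CPM + 0.5), C57BL/6J minus DBA/2J was -1.20 for Hdhd3, -0.92 for Bspry and 0.40 for Frrs1l, the same sign as low-Alad minus high-Alad lines in 3 of 3 genes in the raw counts. In the normalized table Bspry had a value of 15.6 in C57BL/6J and 25.6 in DBA/2J while its difference between the sides was 0.17, so the signs differed there. C57BL/6J kept 45.9% and DBA/2J 34.5% of their raw Bspry reads in that table. Over all 14627 genes with at least 1 CPM in a parent the sign was the same in 46.7%. The 3 called genes lie on the same chromosome, where neighbouring genes are inherited together, so their signs are not independent of each other. A parental difference of at least 0.3 log2 units in either direction was found in 13.1% of these genes. With 1 library a strain there is no test. Hdhd3 had 9.02 CPM in B6D2F1 and 8.77 CPM in D2B6F1, between 4.58 CPM in C57BL/6J (95% interval 3.79 to 5.495) and 11.2 CPM in DBA/2J (9.97 to 12.6). Bspry had 1.72 and 2.39 CPM in the hybrids, with 1.45 CPM for C57BL/6J and 3.18 CPM for DBA/2J. Frrs1l had 115 CPM in B6D2F1 and 93.8 CPM in D2B6F1, with 135 CPM for C57BL/6J and 102 CPM for DBA/2J, so 1 of the hybrids lay below both parents.

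Within the 27 high-Alad lines, genes were also tested for a slope on log2 Alad. The threshold set which lines these were, and the slope used the same Alad counts. Hdhd3 was already known to part the lines like Alad, so its slope is not independent support. Hdhd3 had a slope of 1.25 ± 0.21 log2 units per log2 unit of Alad (SE, adjusted p 0.0201 in edgeR's test) and Bspry 0.36 ± 0.29 (adjusted p 0.408). In all, 2133 of 16179 genes were called (13.2%), 1066 with a positive and 1067 with a negative slope. This count moved with the lines at the low end of Alad. Without BXD43 edgeR called 0 genes, with 2230 at an unadjusted p under 0.05, and Hdhd3 had a slope of 0.96 ± 0.22 (adjusted p 0.267). Without BXD75 instead, 6166 genes were called, and the slope of Hdhd3 was 1.18 ± 0.28 (adjusted p 0.00135). Without both, 2824 genes were called and the slope of Hdhd3 was 0.40 ± 0.31 (adjusted p 0.416). BXD43 also stood apart over the transcriptome, with a median correlation of 0.983 to the other lines, second to BXD32 with 0.980, and all others had at least 0.9875.

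Markers of other cell types moved with some libraries. A marker list in bulk tissue cannot tell fewer cells from less RNA per cell. None of the members tested was called in any of these lists (0.0189% of all genes tested were), and the counts at an unadjusted p under 0.05 stand beside 7.27% of all genes tested. Of 14 meningeal genes, 11 had an unadjusted p under 0.05, with a median log2 difference of -0.66, and their summed level was 194, 363 and 484 CPM in the lowest, median and highest low-Alad line, and 252, 483 and 1506 CPM in the high-Alad lines. Of 13 oligodendrocyte genes 6 did, with a median of 0.18. Of 13 choroid plexus genes 5 did, with a summed level of 336 to 1949 CPM in the low-Alad lines, the highest in BXD32, and 308 to 507 CPM in the high-Alad lines. Of the red blood cell list, 4 genes were at 0 in every line, and the sums were 1.25 to 16.6 CPM in the low-Alad lines and 1.89 to 6.65 CPM in the high-Alad lines. Hypothalamic neuropeptide genes summed to 561 to 1011 CPM and 557 to 1246 CPM, with 1 of 20 at an unadjusted p under 0.05. The striatal and microglial lists had 0, the endothelial and thalamic lists 1 each and the astrocyte list 2 members at that level. With the choroid plexus, striatum, meninges and oligodendrocyte scores as covariates, or without BXD32, 3 genes were called again, and Hdhd3 differed by -1.72 and -1.66. Without BXD32 the counts at an unadjusted p under 0.05 were 10 of 14 for the meningeal, 1 of 13 for the oligodendrocyte and 2 of 13 for the choroid plexus genes.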

How the data were processed

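Stranded mRNA libraries from mouse hypothalamus were sequenced as 100-base single-end reads with 40 M planned per library, per the labels. The submitters' processing notes name TopHat2 2.0.8, HTSeq 0.5.4p3, DESeq and the assembly mm9. The authors deposited raw read counts for 23955 gene symbols (2649 at 0 everywhere), which are the base of every main result. They also deposited a normalized signal for 15251 genes, reads divided by a size factor per library. Dividing by the unit of each library gave whole reads for 100% of its values (tolerance 0.01), and the recovered reads were used as an alternative, for which edgeR called 2 genes between the sides.

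Sides were compared with edgeR 4.0.16 in R 4.3.3 (TMM, filterByExpr, robust quasi-likelihood, no covariates, 36 BXD lines). Alad was left out of the calls of both tools and of edgeR's adjustment, while DESeq2's adjustment included it. SE are the log2 difference divided by the square root of the F statistic. CPM in the text are counts over library totals. DESeq2 1.42.0 was the other tool. The fits were tested on simulated data. Gene names and order came from RefSeq GRCm38.p6 (22377 symbols matched, 1427 by synonym, 151 not), and no coordinates are given besides the RefSeq promoter windows, since the counts were made on mm9. Lines, lists and tests were chosen with earlier results of these data known. Named were Alad, Hdhd3, the heme synthesis genes, the tested ones among 10 neighbours on each side of Alad, called genes, and at most 3 members with the lowest p of each other list, as far as space allowed; others were named after their values were seen, and some genes are not reported here. Each sample of the parents and hybrids is 1 library, so their differences have no test.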

Additional observations from a re-analysis of the deposited data

Results flagged for a closer look

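Among 41 groups of low-Alad lines tested for a line far from the others (Dixon's criterion, which chance meets in about 1 in 20 groups), 10 were picked out, 8 of them in BXD32, the line with the highest summed choroid plexus level. BXD32 was far above the other low-Alad lines for Fech with 71.0 CPM, Zfp37 with 45.8 CPM, Slc31a2 with 15.9 CPM, Slc31a1 with 47.1 CPM and Steap2 with 82.4 CPM. BXD32 was far below them for Wdr31 with 5.05 CPM, Por with 74.7 CPM and the smooth muscle gene Myl9 with 8.85 CPM. BXD96 was far above the others for Alas2 with 8.30 CPM, and BXD55 was far below them for Gng10 with 24.8 CPM.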

How the results depend on the processing

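The count of 3 genes between the sides was 18 with DESeq2 and 42 without a filter on low counts, of which 37 were higher in the low-Alad lines and 25 of all had their highest value in BXD32. It was 2 to 4 under the 9 other alternatives. Hdhd3 and Frrs1l were called in the same direction under all of them. Among these alternatives, the sides at the widest step of Alad were the same lines, so that fit repeated the main one. Keeping Alad in edgeR's adjustment could not change a log2 difference. Both are among the 462 values below. Alternatives that left out BXD43, alone or with other lines, or kept Alad in edgeR's adjustment, were chosen after seeing the data. The count of slopes was 6166 without BXD75, 0 without BXD43, 2824 without both and 660 without BXD43, BXD63 and BXD75. Over 42 named genes and 462 alternative values, 418 kept direction and side of the threshold, 22 passed the threshold only under the alternative, and 22 changed sign. Except for Bspry these were log2 differences near 0, and the cause was not tested. From the normalized table came 0.17 for Bspry, -0.035 for Slc31a2 and -0.0046 for Slc31a1. Without a filter came -0.0014 for Uros and -0.0019 for Slc31a2. DESeq2 gave -2.4e-05 for Uros and 0.0020 for 4933430I17Rik. Covariates gave -0.058 for Cpox, -0.073 for Slc31a1 and -0.034 for Rgs3. Without BXD32 came 0.0063 for Alas1, -0.012 for Cpox, -0.019 for Slc31a2, -0.073 for Slc31a1 and -0.0038 for Rgs3. Without BXD81 and BXD75 came -0.017 for Uros, -0.0069 for Slc31a2, 0.013 for 4933430I17Rik and -0.019 for Zfp618. Without BXD43 came -0.0035 for Uros, and without BXD43 and BXD75 came -0.0049 for Uros and 0.033 for 4933430I17Rik. No paired analysis was possible because no strain was sequenced more than 1 time.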

Other observations

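Outside chromosome 4 no gene was called by edgeR (3 of 15836 were in all, and 1077 genes outside chromosome 4 had an unadjusted p under 0.05). DESeq2 called 8, which were picked out after their values were seen. Pttg1 on chromosome 11, the securin gene that holds back the separation of sister chromatids, had 2.70, 3.39 and 3.797 CPM as the lowest, median and highest low-Alad line. In the high-Alad lines it took separate levels, 25.6 to 33.1 CPM in 17 lines and 2.32 to 3.34 CPM in 10. The log2 difference was -2.51 ± 0.55, with an adjusted p of 0.135 in edgeR's test and 5.8e-05 in DESeq2's. It had 23.9 CPM in the C57BL/6J library and 7.92 CPM in the DBA/2J library, a parental difference in the other direction from that of Alad.

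The smooth muscle genes Acta2, Tagln and Myl9 were also among the 8, with log2 differences of -0.66 ± 0.17, -0.66 ± 0.16 and -0.41 ± 0.094 (adjusted p 0.262, 0.223 and 0.148 in edgeR's test, and 0.0496, 0.0259 and 0.0259 in DESeq2's). Their highest low-Alad lines had 13.9, 7.95 and 14.7 CPM, and their highest high-Alad lines 41.6, 22.4 and 25.8 CPM. The summed level of the meningeal list had a median of 363 CPM in the low-Alad lines and 483 CPM in the high-Alad lines. With 4 cell type scores as covariates, the meningeal one among them, the differences were -0.36 for Acta2, -0.38 for Tagln and -0.25 for Myl9 (adjusted p 0.999 each in edgeR's test), and that of Pttg1 was -2.56 (adjusted p 0.557). The rest of the 8 were Tubb6, Aspg, Cfp and Gm3264. Like Acta2, Gm3264 had an adjusted p of 0.0496 in DESeq2's test, close to the threshold, and that adjustment included Alad.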
